A study of Mus musculus with 12 samples.

Results

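Serpins are a family of proteins that share a fold with an exposed reactive loop, which most members use as bait to trap and inactivate a serine or cysteine protease. They are sorted into clades by sequence, and the letter in the gene symbol names the clade. Clade A holds secreted antitrypsin-like and antichymotrypsin-like proteins, clade B intracellular inhibitors, clades C and D the thrombin inhibitors antithrombin and heparin cofactor II, clade E inhibitors such as protease nexin 1, clade F anti-angiogenic and antiplasmin proteins, clade G the C1 inhibitor, clade H the collagen chaperone Hsp47 and clade I neuroserpin-like proteins. In fibroblasts, secreted serpins act on the proteases that remodel the matrix and Hsp47 folds procollagen.

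The family was followed through the reprogramming that turns embryonic fibroblasts of the mouse (MEF) into pluripotent stem cells (iPSC). Members were all genes of the deposited count files whose symbol is Serpin, a clade letter from a to i, a number and at most 1 further letter. This rule found 62 of 23420 genes, with 24 in clade A, 27 in clade B, 3 in clade E, 2 each in clades F and I, and 1 each in clades C, D, G and H. RNA was sequenced as 12 libraries, 3 each of unsorted MEF, of Stage1 cells at day 6, of Stage2 cells after 4 further days and of established iPSC. Per the series text, the Stage1, Stage2 and iPSC cells were sorted for Oct4-GFP, in which GFP reports on Pou5f1, a gene of the pluripotency network also called Oct4. All groups carried the same mixed C57BL/6 and 129 strain label, and the sources used here do not give the vectors and factors used for reprogramming. No source names the animals or cultures behind the replicates. A p-value here therefore sets the difference between groups against the spread among libraries, not among known animals or cultures.

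Titles and characteristics disagreed on the stage in 12 of 12 libraries, and groups follow the titles. The fibroblast markers (13 genes, mean log2 level) lay at 1.70 to 3.62 in the 9 libraries with other titles, against 9.23 to 9.83 in those titled MEF. The pluripotency markers (10 genes) lay at 7.2 to 8.12 in the 9 libraries, against 0.383 to 0.552 in MEF. These lists set MEF apart. They give no order to Stage1, Stage2 and iPSC, which are named by title alone. Gene counts ranged from 8916223 to 19011944 per library. A count of 0 in a library allowed a level of up to 0.181 to 0.376 CPM (gene counts scaled to 1e+06 per library after TMM scaling, the unit of all levels here unless a length is named), taken as 3 counts of that library and covering counting error only. The share of reads outside genes was 9.21% ± 0.304 in the MEF libraries, 42.8% ± 4.11 in the Stage1 libraries, 49.9% ± 3.16 in the Stage2 libraries and 38.8% ± 4.87 in the iPSC libraries (SD, n = 3 each).

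Of the 62 members, 18 passed the filter on low counts and were tested, and 44 did not. Members that averaged at least 2 CPM in a group and were called in at least 1 comparison number 16, and 15 of these are described by library. Serpina3h, annotated as a pseudogene, and Serpinb1a passed the filter without meeting that rule. Serpina3h lay between 0.134 and 1.88 CPM in every library and was called in no comparison. A member that passes through the group where it is high is bound to differ, so the counts of called members below describe the 18 and say nothing of the whole family. In bulk RNA, fewer cells of a type and less RNA per cell cannot be told apart.

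Together the 62 members took 0.0192% to 0.0350% of gene counts in the 9 Stage1, Stage2 and iPSC libraries, against 0.759% to 0.842% in MEF. The make-up of this pool differed by group. Serpinh1 held 33.5% ± 3.09 of Serpin counts in MEF, Serpinf1 12.2% ± 2.70 and Serpinb6a 5.86% ± 1.82 (SD, n = 3). At Stage1, Serpinb6a held 56.5% ± 1.1, Serpinh1 16.3% ± 0.616 and Serpinb9b 3.52% ± 1.19. At Stage2, Serpinb6a held 31.0% ± 0.954, Serpinh1 21.4% ± 2.30 and Serpinf1 6.55% ± 2.00. In iPSC, Serpinh1 and Serpinb6a were nearly equal at 33.0% ± 2.09 and 32.5% ± 1.34, with Serpinf1 at 3.45% ± 0.389. An intracellular clade B gene was thus the most counted member at Stage1.

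Levels of different genes were compared per kilobase of exon. Among the described members, Serpinh1 was highest in MEF at 1270 ± 175 CPM per kb, followed by Serpinf1 at 477 ± 126 and Serpinb6a at 99.6 ± 30.1 CPM per kb (SD, n = 3). At Stage1, Serpinb6a at 25.4 ± 5.09 and Serpinh1 at 16.2 ± 3.55 CPM per kb led, followed by Serpina3m at 3.19 ± 0.348 CPM per kb. The next in order, Serpinb9b at 2.65 ± 1.26, Serpinb6c at 2.41 ± 0.530 and Serpinb6b at 2.40 ± 1.13 CPM per kb, did not differ beyond their spread. Serpinh1 led at Stage2 with 22.5 ± 0.849 CPM per kb and in iPSC with 41.7 ± 1.54 CPM per kb, ahead of Serpinb6a at 14.9 ± 1.80 and 18.6 ± 0.851 CPM per kb. With the longest transcript as length, Serpinb6a came before Serpinh1 in both groups.

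Stage1 was set against MEF to show how cells with the reporter at day 6 differ from fibroblasts. Of the 18 members tested, 4 were higher at Stage1, 12 were lower and 2 did not pass an adjusted p of 0.05, so 88.9% were called, where 80.4% of all 14770 genes tested were called, 44.2% higher and 36.1% lower. The median log2 fold change was -1.94 over these members and 0.27 over all genes tested. The tested members of clades F, G and H fell, 6 of 8 in clade B fell and 1 rose, and 2 of 4 in clade A and the 1 tested member of clade I rose. In the 16 called members the libraries of the 2 groups did not overlap. The share of all called genes without overlap is not given here, so this adds nothing to the calls.

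**Figure D1:**
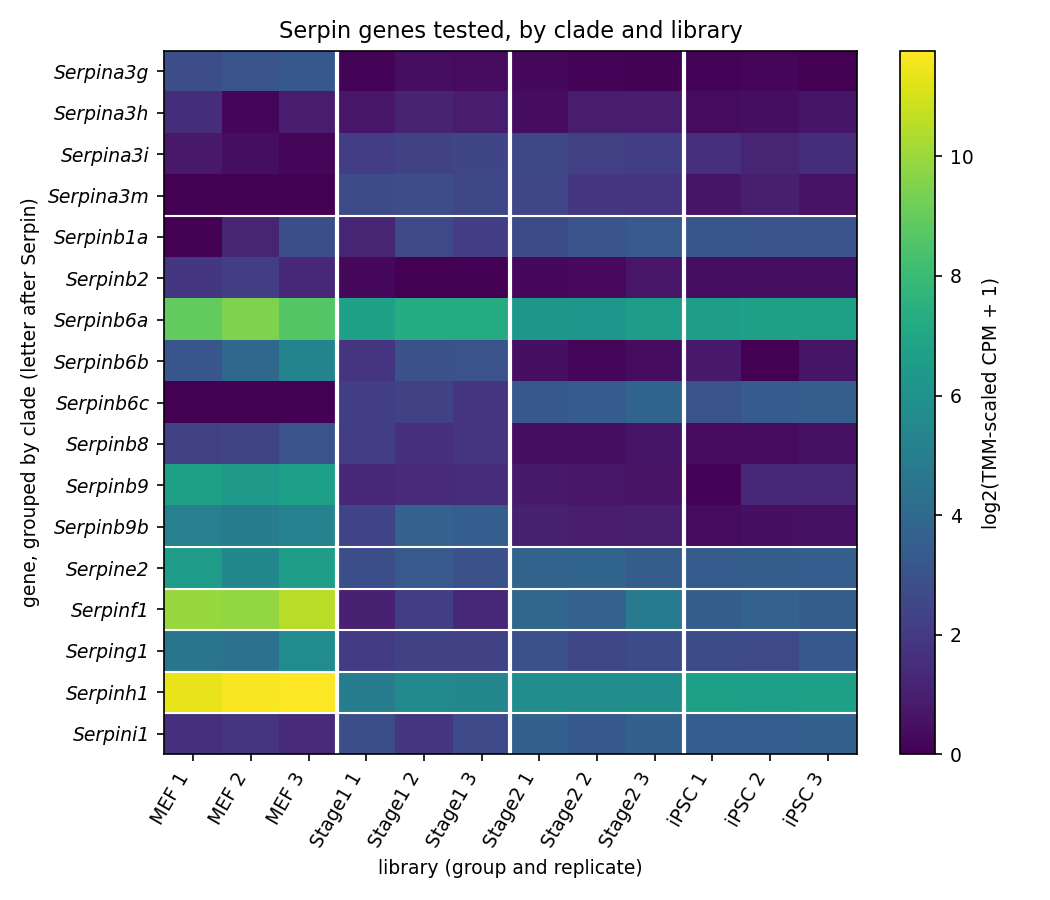
Levels of 17 tested members (rows, grouped by clade) in the 12 libraries (columns) as log2 of CPM plus 1. The rows of Serpinf1 and Serpinh1 are brightest in the 3 MEF columns, while Serpina3m and Serpinb6c are at 0 there.

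Serpine2 encodes protease nexin 1, an inhibitor of thrombin and urokinase, and lies on chromosome 1 at 79794197 to 79861180 (GRCm38, GENCODE M21, the build and annotation of all gene positions here). Its libraries read 90.8, 43.4 and 92.6 CPM in MEF, 6.15, 8.86 and 6.48 CPM at Stage1, 12.3, 12.8 and 10.2 CPM at Stage2 and 9.74, 10.2 and 10.5 CPM in iPSC. It fell to 7.17 ± 1.48 CPM at Stage1, against 75.6 ± 27.9 CPM in MEF, a log2 fold change of -3.40 ± 0.263 (SE, adjusted p = 1.61e-09). All 3 MEF libraries lay above the other 9, with replicate 2 lowest of the MEF libraries.

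Serpinh1 encodes Hsp47, a resident of the endoplasmic reticulum that binds procollagen and is no protease inhibitor. The gene lies on chromosome 7 at 99345376 to 99353239. Its libraries held 2634, 3168 and 3478 CPM in MEF, 30.1, 46.9 and 42.1 CPM at Stage1, 52.7, 55.6 and 56.7 CPM at Stage2 and 103.5, 97.5 and 104.4 CPM in iPSC. None of the 4 groups overlapped, and after the fall at Stage1 the level was higher in each later group. At Stage1 it fell to 39.7 ± 8.67 CPM, against 3093 ± 427 CPM in MEF, a log2 fold change of -6.29 ± 0.194 (adjusted p = 1.43e-14). The promoter of Serpinh1 is shown because this was the one member called higher at both steps after Stage1. It is 250 bases upstream of the RefSeq start (chr7:99353240-99353489, GRCm38.p6, minus strand), with a GC box (GGGCGG, searched on both strands) in capitals.
Serpinh1: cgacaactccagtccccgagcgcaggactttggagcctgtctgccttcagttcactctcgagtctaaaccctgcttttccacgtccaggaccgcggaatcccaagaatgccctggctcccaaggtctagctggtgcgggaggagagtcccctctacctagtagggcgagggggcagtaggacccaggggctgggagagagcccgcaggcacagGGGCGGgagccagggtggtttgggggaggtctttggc
A GC box occurs in 32.9% of 27025 RefSeq promoters of this length. The unit GAANNTTC of the heat shock element, present in 6.78% of them, was not among these letters.

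Serpinf1, on chromosome 11 at 75409769 to 75422701, encodes pigment epithelium-derived factor, a secreted anti-angiogenic serpin without inhibitory activity. The MEF libraries held 993, 919.5 and 1466 CPM, the Stage1 libraries 1.11, 3.49 and 1.60, the Stage2 libraries 13.9, 12.1 and 26.5, and the iPSC libraries 9.91, 11.9 and 10.1 CPM. It fell to 2.07 ± 1.26 CPM at Stage1, against 1126 ± 296 CPM in MEF (log2 fold change -9.13 ± 0.413, adjusted p = 1.01e-11). Serping1 encodes the C1 inhibitor, which blocks the starting proteases of complement and of the kinin system, and lies on chromosome 2 at 84765387 to 84775444. Its levels were 22.9, 19.7 and 52.5 CPM in MEF, 3.32, 3.85 and 3.96 CPM at Stage1, 6.45, 4.73 and 5.43 CPM at Stage2 and 5.46, 5.14 and 8.59 CPM in iPSC. MEF replicate 3 stood well above the other MEF libraries, and all 3 stood above the rest. Serping1 fell by 3.10 ± 0.346 on the log2 scale at Stage1 against MEF (adjusted p = 2.12e-07).

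These falls were set beside those of the fibroblast markers. The 13 markers summed to 91.5 to 110.1 CPM at Stage1, 311.3 to 379.6 CPM at Stage2 and 238.5 to 268.3 CPM in iPSC, against 33070 to 42140 CPM in MEF, and 13 of 13 fell at Stage1. Relative to its MEF mean, the sum stood at 0.268% at Stage1, 0.951% at Stage2 and 0.688% in iPSC. On the same scale Serpinf1 stood at 0.183%, 1.55% and 0.945%, so that both were lowest at Stage1 and highest at Stage2 of these groups. Serpinh1 stood higher, at 1.28%, 1.78% and 3.29% of its MEF mean, and Vim, which encodes the filament protein vimentin, at 1.53%, 3.76% and 3.42%. Serping1 stood at 11.7%, 17.5% and 20.2%, and Serpine2 at 9.48%, 15.6% and 13.4%. The part of remaining or lost fibroblasts in these values was not tested.

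**Figure D2:**
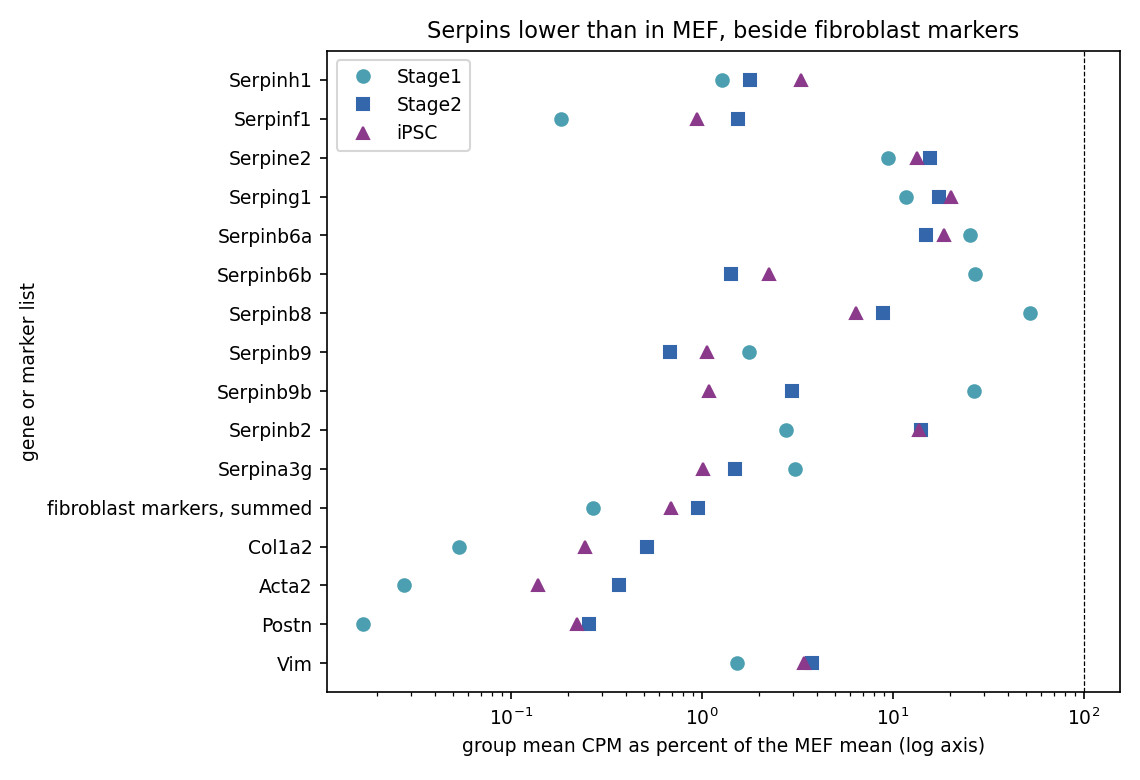
Mean CPM at Stage1, Stage2 and in iPSC as a percent of the MEF mean (x axis, log scale) for 11 members lower than in MEF and for fibroblast markers (rows, n = 3 libraries per group). Serpinf1 and Serpinh1 lie within the range of the fibroblast markers in each group, while Serping1, Serpine2 and Serpinb6a stay near or above 10%. Serpinb9, Serpinb9b, Serpinb6b and Serpina3g lie within the marker range at Stage2 and in iPSC.

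In clade B, Serpinb6a, an intracellular inhibitor of trypsin-like proteases and cathepsin G (chromosome 13, 33917918 to 34002794), remained among the most counted members in every group. It measured 487.1, 720.9 and 407.7 CPM in MEF, 105.8, 157.2 and 148.7 CPM at Stage1, 77.4, 72.7 and 91.5 CPM at Stage2 and 95.3, 104.0 and 102.1 CPM in iPSC. It fell to 137.2 ± 27.5 CPM at Stage1, against 538.6 ± 163 CPM in MEF (log2 fold change -1.97 ± 0.194, adjusted p = 3.85e-08). Its exons overlap those of 1110046J04Rik, Nqo2 and Ripk1 in the annotation, and 25.1% of its 50-base words also occur in transcripts of other genes. How far this alters its counts was not tested. Serpinb6b, a paralogue, had 7.89, 14.3 and 38.1 CPM in MEF, 2.49, 6.62 and 7.16 CPM at Stage1, 0.391, 0.141 and 0.323 CPM at Stage2 and 0.756, 0 and 0.595 CPM in iPSC. The MEF libraries spread widely. Its log2 fold change at Stage1 against MEF was -1.92 ± 0.559 (adjusted p = 0.00527), and -1.05 without MEF replicate 3 (adjusted p = 0.067).

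Serpinb9, an inhibitor of the killer-cell protease granzyme B, and its neighbour Serpinb9b both fell. The levels of Serpinb9 were 103.4, 79.1 and 99.7 CPM in MEF, 1.45, 1.70 and 1.85 CPM at Stage1, 0.782, 0.635 and 0.517 CPM at Stage2 and 0.084, 1.46 and 1.45 CPM in iPSC. Serpinb9b had 34.3, 29.4 and 36.2 CPM in MEF, 4.15, 12.2 and 10.4 CPM at Stage1, 1.08, 0.917 and 0.970 CPM at Stage2 and 0.252, 0.417 and 0.425 CPM in iPSC. At Stage1 Serpinb9 stood at 1.77% of its MEF mean and Serpinb9b at 26.7%. The log2 fold change at Stage1 against MEF was -5.82 ± 0.356 for Serpinb9 (adjusted p = 6.58e-11) and -1.91 ± 0.293 for Serpinb9b (adjusted p = 1.07e-05). Serpinb8, whose human counterpart inhibits furin, held 3.63, 4.28 and 6.94 CPM in MEF, 3.39, 1.97 and 2.44 CPM at Stage1, 0.391, 0.353 and 0.582 CPM at Stage2 and 0.252, 0.278 and 0.425 CPM in iPSC. Its fall at Stage1 was small, with a log2 fold change of -0.93 ± 0.381 (adjusted p = 0.0323), and was no longer called without MEF replicate 3 (adjusted p = 0.187), without Stage1 replicate 2 (0.125) or 3 (0.0895), or with library totals in place of TMM (0.0884). Serpinb2, encoding plasminogen activator inhibitor 2, was near the floor outside MEF. It held 2.63, 3.41 and 1.45 CPM in MEF, 0.207, 0 and 0 CPM at Stage1, 0.195, 0.212 and 0.647 CPM at Stage2 and 0.336, 0.347 and 0.340 CPM in iPSC. With 3 counts at Stage1 against 96 in MEF, its level was 30.4-fold lower (95% counting interval 10.1 to 150, adjusted p = 3.36e-05 from the fit).

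Serpinb6c was the clade B member that rose. It was at 0 in the 3 MEF libraries, at 3.60, 3.94 and 2.53 CPM at Stage1, 8.50, 9.59 and 12.9 CPM at Stage2 and 6.97, 9.44 and 10.6 CPM in iPSC. With 126 counts at Stage1 and 0 in MEF, it was at least 44.2-fold higher at Stage1, taking 3 counts over the MEF group as the floor (adjusted p = 4.26e-08). On chromosome 13 it is 12209 bp from Serpinb6a, which fell. Serpinb9 and Serpinb9b are 9458 bp apart, and 24182 bp separate Serpinb6b from Serpinb9. These genes belong to a clade B cluster of 15 members over 1161 kb of chromosome 13 (32842092 to 34002794), of which 6 were tested, 1 higher, 4 lower and 1 not called at Stage1 against MEF. A further 12 clade B members lie within 749 kb of chromosome 1 (106861173 to 107610484), where both tested genes, Serpinb2 and Serpinb8, fell. Neighbouring clade B genes therefore did not all move one way.

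The promoters of 4 clade B genes are shown as 250 bases upstream of a RefSeq start (GRCm38.p6). They set a pair of neighbours that fell beside another gene that fell and the 1 clade B gene that rose. In Serpinb9 (chr13:33004291-33004540, plus strand) and Serpinb9b (chr13:33027164-33027413, plus strand) the capitals mark their longest shared run of 13 bases. In Serpinb8 (chr1:107589756-107590005, plus strand) they mark the AP-1 motif TGANTCA, and in Serpinb6c (chr13:33905192-33905441, minus strand) a GC box.
Serpinb9: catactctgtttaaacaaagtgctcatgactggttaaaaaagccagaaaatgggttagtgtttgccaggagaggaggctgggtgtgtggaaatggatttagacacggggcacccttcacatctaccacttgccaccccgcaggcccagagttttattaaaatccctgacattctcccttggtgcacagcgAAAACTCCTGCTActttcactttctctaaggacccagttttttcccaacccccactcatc
Serpinb9b: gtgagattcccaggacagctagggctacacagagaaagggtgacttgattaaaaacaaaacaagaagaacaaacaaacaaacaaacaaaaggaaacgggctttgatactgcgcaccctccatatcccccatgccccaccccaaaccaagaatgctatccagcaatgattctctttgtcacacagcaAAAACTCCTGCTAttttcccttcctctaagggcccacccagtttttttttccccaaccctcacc
Serpinb8: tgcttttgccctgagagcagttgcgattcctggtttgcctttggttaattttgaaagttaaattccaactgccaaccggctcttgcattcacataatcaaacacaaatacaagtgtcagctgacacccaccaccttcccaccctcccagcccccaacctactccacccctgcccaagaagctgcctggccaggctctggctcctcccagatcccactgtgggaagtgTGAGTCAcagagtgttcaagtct
Serpinb6c: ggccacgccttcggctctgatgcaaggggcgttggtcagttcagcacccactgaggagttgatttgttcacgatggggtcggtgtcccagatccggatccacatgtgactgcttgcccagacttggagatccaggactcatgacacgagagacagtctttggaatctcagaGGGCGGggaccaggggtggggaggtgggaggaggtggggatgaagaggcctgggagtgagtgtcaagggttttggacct
The shared run begins 60 bases before the RefSeq start used for Serpinb9 and 64 before that of Serpinb9b. Serpinb9 shares runs of at most 7 to 10 bases with the promoters of 11 other described members. The AP-1 motif occurs in 6.87% of the 27025 promoters. Neither TATAAA, present in 13% of them, nor CCAAT, present in 34.5%, was among the letters of these 4 windows on either strand. They held 8 CG dinucleotides in Serpinb6c, 3 in Serpinb9, 2 in Serpinb9b and 2 in Serpinb8, where the median of all promoters was 6. Among the other described members that rose, Serpina3i had 0 and Serpini1 had 13. Among those that fell, Serpine2 had 34 and Serpinh1 had 11, while Serpina3g had 4, Serpinb6b had 3 and Serpinf1 had 2. Serpinb6a had 2 or 20 and Serpinb2 had 0 or 3, by the RefSeq start used. The RefSeq starts used for Serpinb6c and Serpinb9 lie inside their GENCODE spans. The RefSeq spans of Serpinb6c, Serpinb9 and Serpinb8 begin further upstream, at 33905726, 32997061 and 107589926. These 3 windows therefore do not lie upstream of the whole gene. RefSeq promoters were found for 52 of 62 members and 13 of the 16 described.

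Clade A genes for antichymotrypsin-like proteins split. Serpina3g, an inhibitor of lysosomal cathepsins in mouse leukocytes, had 5.89, 7.69 and 8.50 CPM in MEF, 0.0691, 0.358 and 0.253 CPM at Stage1, 0.195, 0.0705 and 0.0647 CPM at Stage2 and 0.084, 0.139 and 0 CPM in iPSC. It fell by 5.03 ± 0.553 on the log2 scale at Stage1 against MEF (adjusted p = 1.76e-07). Serpina3m was at 0 in the 3 MEF libraries and stood at 5.74, 5.91 and 4.80 CPM at Stage1, 4.59, 2.61 and 2.52 CPM at Stage2 and 0.588, 0.972 and 0.510 CPM in iPSC. It was at least 72.3-fold higher at Stage1 than in MEF, from 206 counts against 0 (adjusted p = 3.94e-08). Serpina3i had 0.752, 0.334 and 0.121 CPM in MEF, 3.46, 3.94 and 4.55 CPM at Stage1, 4.79, 3.74 and 3.56 CPM at Stage2 and 2.10, 1.32 and 1.87 CPM in iPSC. It rose by 3.48 ± 0.497 on the log2 scale (adjusted p = 4.85e-06), and by 4.08 without MEF replicate 1. Serpina3m and Serpina3i were thus highest at Stage1 and Stage2 and lower in iPSC, in contrast to Serpinb6c. These genes are near-copies in a cluster of 23 clade A members over 800 kb of chromosome 12 (103614786 to 104414329), and 19.1% of the 50-base words of Serpina3m, 15.9% of Serpina3i and 15.5% of Serpina3g also occur in transcripts of other genes. Serpina3m further overlaps exons of Serpina3k, so the authors' counting could set reads there aside as ambiguous and count them for neither gene.

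Serpini1, on chromosome 3 at 75557547 to 75643495, encodes neuroserpin, an inhibitor of tissue plasminogen activator made in neurons. It had 2.13, 2.54 and 1.63 CPM in MEF, 6.02, 2.60 and 5.05 CPM at Stage1, 11.6, 8.39 and 11.3 CPM at Stage2 and 10.4, 10.4 and 11.1 CPM in iPSC. At Stage1 it averaged 4.55 ± 1.76 CPM, against 2.10 ± 0.457 CPM in MEF (log2 fold change 1.13 ± 0.323, adjusted p = 0.00393). Stage1 replicate 2 was barely above the highest MEF library, and the adjusted p was 0.0505 in a fit of only these 2 groups. The 8 neuronal markers summed to 217.2 to 238.2 CPM at Stage1, 241.6 to 288.9 CPM at Stage2 and 304.3 to 363.5 CPM in iPSC, against 82.1 to 118.6 CPM in MEF, and their part in the Serpini1 values was not tested. Of the 6 tested, Rbfox3, Snap25, Nefl and Stmn2 rose and Tubb3 fell at Stage1 against MEF, and Tubb3 and Stmn2 rose while Map2 and Nefl fell at Stage2 against Stage1.

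**Figure D3:**
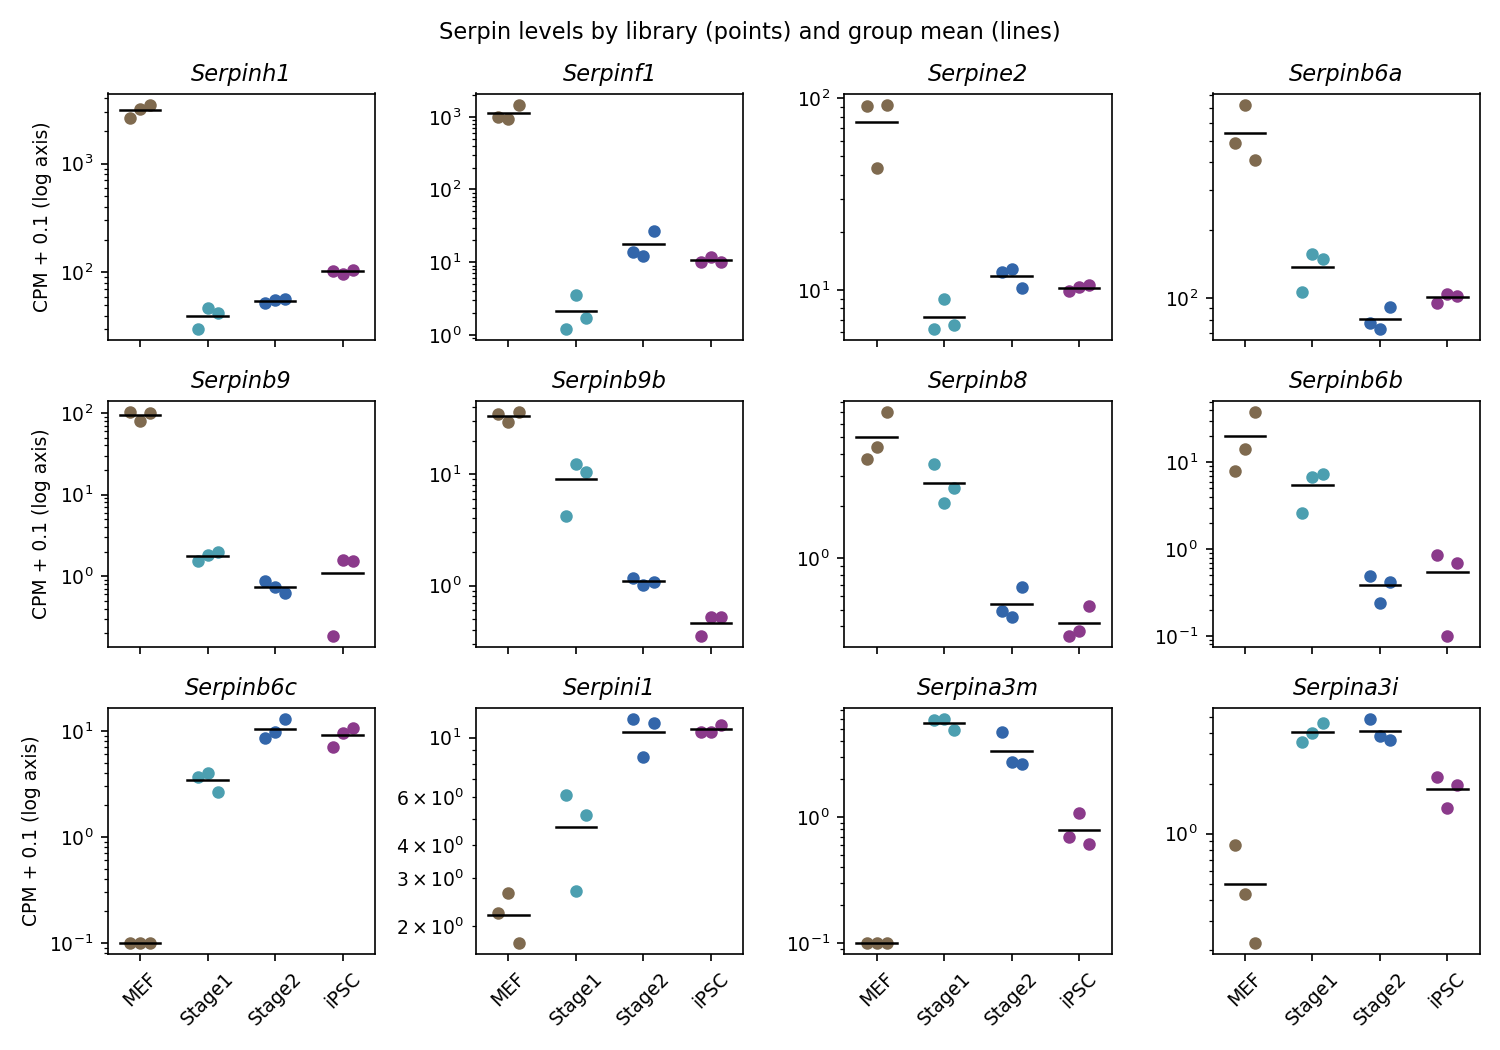
CPM plus 0.1 on a log axis (y, scaled per gene) for 12 described members in the 4 groups (x axis). Points are the 3 libraries of a group and lines their mean. Serpinf1 is lowest at Stage1, Serpinb9b and Serpinb8 step down at Stage1 and again at Stage2, Serpinb6c and Serpini1 step up, and Serpina3m is highest at Stage1.

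Stage2 was set against Stage1 to follow the sorted cells over 4 further days. Of the 18 tested members 6 were higher at Stage2, 5 were lower and 7 were not called, so 61.1% were called, where 40.4% of all genes tested were called, 20.6% higher and 19.8% lower. The members that rose included Serpine2, Serpinf1, Serpinh1, Serpini1 and Serpinb6c, and the 5 that fell were all of clade B. The median log2 fold change was 0.24 over the members tested and 0.02 over all genes tested.

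Serpinf1 rose to 17.5 ± 7.88 CPM at Stage2, against 2.07 ± 1.26 CPM at Stage1 (log2 fold change 3.13 ± 0.374, adjusted p = 1.14e-05). In the same step 10 of the 13 fibroblast markers rose, with a median log2 fold change of 1.89 over the 13. Col1a2, a collagen chain, averaged 35.8 CPM at Stage2, against 3.68 CPM at Stage1. Serpini1 rose by 1.18 ± 0.294 on the log2 scale (adjusted p = 0.00405) and Serpinb6c by 1.62 ± 0.304 (adjusted p = 0.000603). Serpinh1 and Serpine2 rose by less, with log2 fold changes of 0.47 ± 0.159 (adjusted p = 0.0248) and 0.72 ± 0.258 (adjusted p = 0.0341). Both calls depended on single libraries. Serpinh1 had a log2 fold change of 0.29 without Stage1 replicate 1 (adjusted p = 0.146), and was also not called without Stage1 replicate 3 (0.0527) or Stage2 replicate 1 (0.0517), 2 (0.0729) or 3 (0.0831). Serpine2 was not called without Stage1 replicate 1 (adjusted p = 0.125) or 3 (0.116) or Stage2 replicate 1 (0.0894) or 2 (0.109).

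The steepest falls at Stage2 against Stage1 were those of Serpinb6b, with a log2 fold change of -4.23 ± 0.807 (adjusted p = 7e-04), and Serpinb9b, with -3.16 ± 0.364 (adjusted p = 3.82e-06). Serpinb8 fell by 2.52 ± 0.462 on the log2 scale (adjusted p = 0.000366), and Serpinb6a fell to 80.5 ± 9.76 CPM, against 137.2 ± 27.5 CPM at Stage1 (log2 fold change -0.77 ± 0.190, adjusted p = 0.00381). For Serpinb9 the log2 fold change was -1.38 ± 0.480 (adjusted p = 0.029), and it was not called without Stage1 replicate 2 (adjusted p = 0.0652) or 3 (0.0758), without Stage2 replicate 2 (0.0718) or 3 (0.102), or with library totals (0.0636). Relative to MEF, Serpinb9b stood at 26.7% at Stage1, 2.96% at Stage2 and 1.09% in iPSC, and Serpinb6b at 27.0%, 1.42% and 2.24%. Serpinb8 stood at 52.5%, 8.93% and 6.43%. These clade B genes were thus lowered in part at Stage1 and further at Stage2, unlike the fibroblast marker sum, which was lowest at Stage1. The Stage1 falls of Serpinb6b and Serpinb8 were not called without MEF replicate 3 (adjusted p = 0.067 and 0.187). Of the 13 fibroblast markers, 10 rose and 0 fell at Stage2 against Stage1. In iPSC against Stage1, 9 rose and 2, Dcn and Lum, fell. Macrophage markers, given because leukocytes use clade B serpins, summed to 11.8 to 16.9 CPM at Stage1, 27.3 to 34.8 CPM at Stage2 and 13.9 to 19.2 CPM in iPSC, against 164.2 to 182.5 CPM in MEF. Of the 11 tested, Cd68 rose and Lyz2 fell at Stage2 against Stage1. Cd68, a lysosomal protein of macrophages, held a mean of 25.0 CPM at Stage2, against 7.54 CPM at Stage1, and Lyz2, a lysozyme, 0.439 CPM, against 1.30 CPM. The part of macrophages was not tested.

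Epithelial cells also express clade B serpins. The 10 keratinocyte and other epithelial markers summed to 725.3 to 753.8 CPM at Stage1, 633.0 to 699.4 CPM at Stage2 and 532.0 to 606.5 CPM in iPSC, against 34.7 to 44.6 CPM in MEF. The 12 trophoblast markers summed to 142.8 to 163.8, 78.1 to 95.95 and 65.0 to 75.9 CPM in these groups, against 2.26 to 6.55 CPM in MEF. The 13 extraembryonic endoderm markers, a lineage that secretes clade A serpins, summed to 28.8 to 52.4, 101.1 to 123.9 and 176.5 to 185.8 CPM, against 369.8 to 529.2 CPM in MEF. Lamb1, a laminin chain, made up most of the endoderm sum, with means of 35.5, 100.7 and 163.4 CPM, against 315.4 CPM in MEF. Cdh1 and Epcam made up most of the epithelial sum, with means of 387.9 and 308.9 CPM at Stage1. The keratinocyte genes Krt5 and Krt14 lay at 0.253 to 0.346 and 0.346 to 0.448 CPM there. Of the trophoblast markers Tfap2c had the highest mean, at 119.2, 54.5 and 30.4 CPM over Stage1, Stage2 and iPSC. The part of such cells in the Serpin values was not tested.

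**Figure D4:**
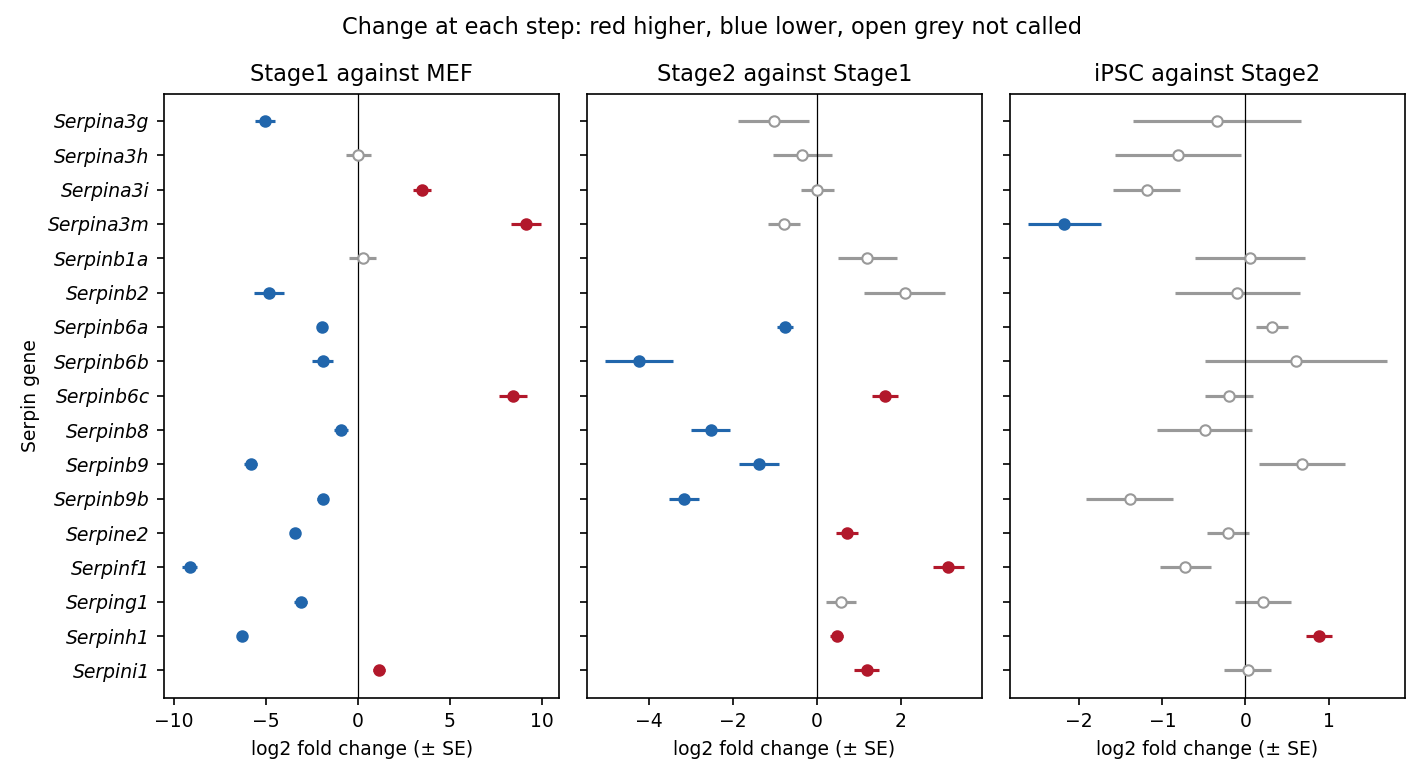
Log2 fold change with its SE (x axis, a separate scale in each panel) of 17 tested members (rows), with Stage1 against MEF on the left, Stage2 against Stage1 in the middle and iPSC against Stage2 on the right. Red marks members called higher, blue members called lower and open grey members not called. The fitted values of Serpina3m and Serpinb6c against MEF depend on the prior count, because MEF had 0 counts. The left panel holds 4 red and 11 blue points and the right panel 1 of each.

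iPSC was set against Stage2 to show what changes last. Of the 18 members 1 was higher, 1 was lower and 16 were not called, so 11.1% were called, where 18.1% of all genes tested were called, 9.21% higher and 8.87% lower. Serpinh1 rose to 101.8 ± 3.73 CPM in iPSC, against 55.0 ± 2.07 CPM at Stage2 (log2 fold change 0.89 ± 0.158, adjusted p = 0.00141). Serpina3m fell to 0.690 ± 0.247 CPM, against 3.24 ± 1.17 CPM at Stage2 (log2 fold change -2.18 ± 0.440, adjusted p = 0.0042). Serpina3i had 1.76 ± 0.401 CPM in iPSC and 4.03 ± 0.665 CPM at Stage2, just above the threshold of 0.05 (log2 fold change -1.19 ± 0.405, adjusted p = 0.0504), and it was called lower with RLE scaling, library totals, a stricter filter, DESeq2 or a fit of only these 2 groups. Serpinf1 averaged 10.6 ± 1.08 CPM in iPSC and 17.5 ± 7.88 CPM at Stage2 (adjusted p = 0.118), and was called lower in the fit of only these 2 groups. At this step 9 of 13 fibroblast markers fell and 1 rose.

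Set against Stage1, iPSC had 5 of 18 members higher and 5 lower, so 55.6% were called, where 39.4% of all genes tested were called, 21.3% higher and 18.1% lower. The higher ones included Serpinb6c, Serpinf1, Serpinh1 and Serpini1, with log2 fold changes of 1.42, 2.40, 1.36 and 1.21. The lower ones were Serpina3i, Serpina3m, Serpinb6b, Serpinb8 and Serpinb9b, with log2 fold changes of -1.18, -2.95, -3.62, -3.01 and -4.55. Serpina3i was the least firm of these (adjusted p = 0.0288), and it was not called without Stage1 replicate 2 (adjusted p = 0.0681) or 3 (0.103), or without iPSC replicate 1 (0.0517), 2 (0.119) or 3 (0.0682). The Serpinb6b value moved to -4.24 without iPSC replicate 1 and to -2.98 without iPSC replicate 2, and was called in both.

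Set against MEF, iPSC had 4 of 18 members higher and 12 lower, so 88.9% were called, where 80.8% of all genes tested were called, 44.9% higher and 35.8% lower. This comparison shares the MEF libraries with that of Stage1, so the 2 are not independent. Serpinf1 had a log2 fold change of -6.72 ± 0.357 in iPSC against MEF (adjusted p = 6.95e-11), beside -9.13 at Stage1. Serpinh1 had -4.93 ± 0.181 (adjusted p = 1e-13) beside -6.29. For several clade B genes the iPSC value was the lower one. It was -6.47 ± 0.417 for Serpinb9b beside -1.91 at Stage1, -5.54 ± 0.743 for Serpinb6b beside -1.92 and -3.94 ± 0.480 for Serpinb8 beside -0.93. The gap was smaller for Serpinb9, with -6.52 ± 0.376 beside -5.82, and for Serpinb6a, with -2.42 ± 0.197 beside -1.97. For Serpinb2 the iPSC value was the higher one, with -2.83 ± 0.661 beside -4.82 at Stage1. Serpinb6c was at least 119-fold higher in iPSC than in MEF and Serpina3m at least 9.35-fold higher. Serpini1 rose by 2.34 ± 0.317 on the log2 scale (adjusted p = 2.53e-06). For Serpina3g, with 3 counts in iPSC against 303 in MEF, the level was 97.3-fold lower (95% counting interval 33 to 474). Serpinb1a, an inhibitor of neutrophil proteases, stood at 7.73, 7.57 and 7.57 CPM in iPSC, against 0, 1.34 and 6.09 CPM in MEF, and was not called (adjusted p = 0.0589). Its iPSC libraries were close together and its MEF libraries far apart.

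The 44 members that did not pass the filter included the antitrypsin-like genes Serpina1a to Serpina1f, and Serpinc1 (antithrombin), Serpind1 (heparin cofactor II) and Serpinf2 (alpha2-antiplasmin), plasma inhibitors made by liver. Of the 44, 34 were at 0 in all 3 MEF libraries, 0 at Stage1, 1 at Stage2 and 2 in iPSC. Their counts together came to 79 to 146 per library at Stage1, 100 to 185 at Stage2 and 52 to 100 in iPSC, against 12 to 44 in MEF. Their summed level was 7.07 to 10.1 CPM at Stage1, 7.05 to 12 CPM at Stage2 and 3.61 to 8.51 CPM in iPSC, against 0.802 to 5.51 CPM in MEF. Serpina3n, a secreted acute-phase serpin, had the highest single count with 37 in MEF replicate 1, beside 6 and 0 in the other MEF libraries. No member of the 44 exceeded a group mean of 0.813 CPM per kb. Tested without the filter, 16 of the 44 were called higher at Stage1 than in MEF, where 37.2% of all 22616 genes tested in this way were called higher. In iPSC against MEF 10 of the 44 were called higher, where 37.4% of all genes were. None of the 44 was called lower in these comparisons, where 24% and 23.6% of all genes were, or called in the other 3. Of all genes, 13.3% were called higher and 10.9% lower at Stage2 against Stage1, 5.29% and 5.28% in iPSC against Stage2, and 13.8% and 10.1% in iPSC against Stage1. The libraries also differed as a whole. The share of all genes at 0 was 12.3% to 19.5% in the 9 sorted libraries, against 37.7% to 41.0% in MEF, and reads outside genes were more frequent in the sorted libraries. The part of these features in the low Serpin counts was not tested.

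The protease partners of the family were described by lists. For serpins that act on plasminogen activators, 7 of 10 plasminogen activation genes were tested, and 7 of 7 fell at Stage1 against MEF, with a median log2 fold change of -4.71, where that of all genes tested was 0.27 and 36.1% of them fell. Plat, encoding tissue plasminogen activator, a target of neuroserpin, averaged 0.817 CPM at Stage1, 1.45 CPM at Stage2 and 1.64 CPM in iPSC, against 193 CPM in MEF. Lrp1, the receptor that clears serpin and protease complexes, averaged 18.5, 125.7 and 72.2 CPM, against 486.2 CPM in MEF, and Anxa2, a plasminogen-binding annexin, 52.2, 61.9 and 46.8 CPM, against 1081 CPM. At Stage2 against Stage1, Plaur and Lrp1 rose and Plgrkt fell among the 7. Lrp1 fell in iPSC against Stage2. The mean of Lrp1 was lowest at Stage1 and higher at Stage2 than in iPSC. In iPSC against MEF, 7 of 7 were lower.

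Of 15 collagen clients and folding partners of Hsp47, 15 fell at Stage1 against MEF (median log2 fold change -6.14), where 36.1% of all genes tested fell. At Stage2 against Stage1, 9 rose and 3 fell (median 1.46), where 20.6% of all genes tested rose and 19.8% fell. In iPSC against Stage2, 4 rose and 4 fell, where 9.21% of all genes tested rose and 8.87% fell. In the last step the collagen genes Col1a1, Col1a2, Col3a1 and Col5a1 were the 4 that fell, while Serpinh1 rose with P4ha2, Kdelr3, Fkbp10 and Ppib, which encode a prolyl hydroxylase subunit, a retrieval receptor and a pair of prolyl isomerases. Col1a2 averaged 16.8 CPM in iPSC and 35.8 CPM at Stage2. P4hb, the disulfide isomerase subunit of prolyl hydroxylase, averaged 511.1 CPM at Stage1, 391.5 CPM at Stage2 and 503.4 CPM in iPSC, against 2291 CPM in MEF.

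For clades A and B, 11 of 12 cathepsin genes were tested and 11 fell at Stage1 against MEF, with a median log2 fold change of -3.43. Of all genes tested, 36.1% fell and 44.2% rose in that comparison, with a median of 0.27. Ctsb, the lysosomal cathepsin B, averaged 95.5, 73.0 and 115.4 CPM over Stage1, Stage2 and iPSC, against 1033 CPM in MEF, and Ctsl, cathepsin L, 158.4, 87.8 and 159.1 CPM, against 403.9 CPM. Ctsb, Ctsd, Ctsl and Ctss rose in iPSC against Stage2, where 9.21% of all genes tested rose. Of 19 granule proteases and inflammatory caspases 5 were tested, and Gzmc, Gzmd, Gzme and Casp8 fell at Stage1 while Gzmm rose (median log2 fold change -4.57). Gzme, a granzyme, averaged 0.132, 0.989 and 0.886 CPM, against 34.7 CPM in MEF. Casp8, an apoptotic caspase, averaged 18.4, 1.51 and 3.18 CPM, against 65.3 CPM in MEF. Like Serpinb8 and Serpinb9b it was lowered at both the first and the second step, though the first fall of Serpinb8 was not called under every alternative. In iPSC against Stage2 Casp8 rose (log2 fold change 1.1, adjusted p = 0.0181 from the fit), while Serpinb8 and Serpinb9b were not called.

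Of 11 membrane-anchored serine proteases 4 were tested, with St14, Prss8 and Hpn higher at Stage1 than in MEF and Furin lower (median log2 fold change 6.25). St14, the epithelial protease matriptase, was at 0 in MEF and averaged 79.8, 67.8 and 75.5 CPM over Stage1, Stage2 and iPSC. Furin, a proprotein convertase, averaged 2.30, 7.54 and 5.42 CPM, against 183.1 CPM in MEF. Of 12 tested coagulation, kinin and complement genes, 4 rose and 6 fell at Stage1 against MEF (median log2 fold change -1.74), where 44.2% of all genes tested rose and 36.1% fell. Of 14 tested protease inhibitors that are not serpins, 6 rose, among them Spint1 and Spint2, which inhibit matriptase, and 7 fell, among them Tfpi, the tissue factor pathway inhibitor, at 85.6, 126.0 and 76.2 CPM against 318.1 CPM in MEF. Like the coagulation genes, most of these inhibitors were called, as were 80.4% of all genes tested.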

How the data were processed

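The deposited files hold whole-number read counts per gene symbol, which the authors made with HTSeq 0.5.4p3 after aligning to mm10 with TopHat2 2.0.9, Bowtie2 2.2.6 and SAMtools 0.1.19, per the submitters' processing notes, which also name DESeq2 1.12.4. RNA was isolated with the miRNeasy kit, per the labels' protocols. For strandedness and annotation version, the sources used here give nothing, and overlapping and antisense genes cannot be told apart.

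All 12 libraries entered a single robust quasi-likelihood fit in R 4.3.3 with edgeR 4.0.16 and limma 3.58.1, after TMM scaling and filterByExpr by group, which left 14770 genes. HTSeq's summary lines stayed out. Log2 fold changes were tested for 5 comparisons, Benjamini-Hochberg adjusted over all genes tested, and called below 0.05. The SE is the size of the log2 fold change divided by the root of the F statistic. The procedure was tested on simulated counts. Lengths came from GENCODE M21 exon unions and promoters from RefSeq. Words of 50 bases measured shared sequence.

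Members named in full were called at least once and averaged at least 2 CPM in a group. Of the tested members, 1 is not reported here, though counts of tested members include it. List examples are up to 4 genes with the highest mean CPM. Members, lists and rules were chosen with earlier results of these data known. Alternatives were RLE scaling, library totals, no filter, at least 1 CPM in 3 libraries, a replicate block, a test against 2-fold, DESeq2 1.42.0, separate fits of each pair of groups, a fit without robust estimation, another gene length and leaving out each library.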

Additional observations from a re-analysis of the deposited data

How the results depend on the processing

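Over the 55 called pairs of gene and comparison, 824 values under alternatives were computed, of which 786 kept direction and call, 38 lost the call and 0 reversed. For iPSC against Stage2, where 1 member was lower, the count was 2 with RLE scaling, 2 with library totals, 2 with a filter of at least 1 CPM in 3 libraries, 3 with DESeq2 and 4 in the fit of only the groups compared, and a fold threshold of 2 left 0 lower and 0 higher. Without the filter, 20 members were higher at Stage1 than in MEF and 14 in iPSC than in MEF, because more low members entered the test. In iPSC against Stage1, 8 members were higher in the fit of only the groups compared and 3 with the fold threshold, which at Stage2 against Stage1 left 2 higher and 3 lower. Leaving out 1 library gave, for Stage1 against MEF, 4 to 6 higher and 10 to 12 lower; for Stage2 against Stage1, 4 to 6 and 4 to 5; for iPSC against Stage2, 1 to 2 and 1 to 2; for iPSC against Stage1, 5 to 6 and 4 to 6; and for iPSC against MEF, 4 to 5 and 12 to 13. Values that moved by over 1.5 times with the call kept include Serpinb2 at Stage1 against MEF, at -8.00 without Stage1 replicate 1, Serpina3g in iPSC against MEF, at -7.14 without iPSC replicate 2, and Serpinb6b in iPSC against MEF, at -4.68 without MEF replicate 3. Library totals in place of TMM shifted the median of all genes by 0.179 (log2) at Stage1 against MEF, 0.204 at Stage2 against Stage1, 0.104 in iPSC against Stage1 and 0.283 in iPSC against MEF, and moved the share of higher calls among all genes to 70.6% from 51.1% at Stage2 against Stage1 and to 34.1% from 50.9% in iPSC against Stage2; no Serpin call changed direction. Between groups, deviations of same-numbered libraries correlated weakly, at -0.0675 to 0.197 (median 0.0306, 18 pairs of libraries). Those of different-numbered libraries lay at -0.139 to 0.0829 (median -0.0131, 36 pairs of libraries). These values do not settle whether the numbers pair the libraries. A fit with the replicate block gave the same calls for all 55 pairs of gene and comparison, with 4 higher and 12 lower at Stage1 against MEF. Members under about 3 counts per library, which include most of the 44 not tested, lie at the limit of depth. The cause of other changes was not tested.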
